A study of Arabidopsis thaliana with 5 samples.

Results

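The genes described here were those whose log2 signal in L*er* replicate 1 stood at least 0.8 (1.74-fold) above the signal in each of the other 4 arrays of *ask1* and L*er* floral buds. Of 22746 probe sets on the ATH1 array, 118 (0.519%) met this criterion. The 5 probe sets of *AMS*, AT1G06170, AT5G07230, AT1G66850 and AT3G23770 met it too but were left out of the set, which left 113 probe sets. The platform's table pairs 66 of these with a single gene each, 2 with several genes and 45 with no gene, so that genes are named below for 66 of the 113 only. Because the criterion read all 5 arrays, the excess in L*er* replicate 1 is a description of how the genes were chosen, and no test is attached to it.

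The study compared unopened floral buds of the *ask1*-/- mutant with those of the L*er* wild type, on plants kept in soil for about 5 to 6 weeks. The arrays analysed here were 3 of *ask1* and 2 of L*er*. *ASK1* encodes a subunit of SCF ubiquitin ligases, and the mutant, which is in the L*er* background, is male sterile and was picked by its phenotype among the progeny of heterozygous plants. According to the study's methods, a sample took in the shoot tip of the main stem's flower head together with every flower that had not opened, so it mixed many stages and cell types. The labels call the arrays biological replicates and name no batch, harvest time or number of plants, and further L*er* arrays of the study were not analysed here.

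Anthers carry a layer named the tapetum, the innermost layer of the anther wall, which surrounds the meiotic cells and the microspores. The tapetum feeds the developing pollen, secretes lipid transfer proteins, enzymes and precursors of the pollen wall, and later breaks down to deposit the pollen coat. A chain of transcription factors that includes *DYT1*, *TDF1*, *AMS* and *MYB80* switches these secretory genes on over a short span of bud stages. In bulk tissue, a lower signal from fewer cells of a type cannot be told apart from less RNA per cell.

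Across all 5 arrays, Pearson correlations over probe sets lay between 0.983 and 0.996, and the L*er* pair stood at 0.989 with 292 probe sets at least 2-fold apart. *ask1* replicates 1 and 3 were the closest pair, with 24 such probe sets, and *ask1* replicate 2 stood apart from both, with 510 and 543. Probe sets are not independent replicates, and with 5 arrays the precision of each value is low. Of 6 measured genes of floral meristem and organ identity, *UFO*, *YAB3* and *PTL* were at 5.99 or higher on every array, *CLV3* was at 5.26 to 5.69, and *RBE* (4.92 to 5.26) and *PUCHI* (4.53 to 5.09) were near a log2 signal of 5, so the label of floral buds rests on part of this list. The probe set of *ASK1* carries no gene name here, so the genotype labels were not checked.

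The number of probe sets that stood apart on a single array differed between arrays. At least 0.8 above each of the other 4 arrays lay 1 probe set in *ask1* replicate 1 (0.0044%), 94 in *ask1* replicate 2 (0.413%), 8 in *ask1* replicate 3 (0.0352%), 118 in L*er* replicate 1 (0.519%) and 32 in L*er* replicate 2 (0.141%). In the opposite direction the counts in the same order were 2 (0.00879%), 24 (0.106%), 2 (0.00879%), 13 (0.0572%) and 49 (0.215%). L*er* replicate 1 thus had the most probe sets above the rest, with *ask1* replicate 2 next, and both had fewer below the rest than above. Of the genes in 11 lists of floral cell types and stages, 9 were among the 118 probe sets of L*er* replicate 1 and 0 were in any of the other 9 selections. These 9 were 2 genes of the tapetum regulator list and 7 of the pollen wall and tapetum secretion list, and 5 of the 9 are the genes left out of the set. The lists were composed with earlier results of these data known, so these counts describe the selections and support nothing further.

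**Figure D1:**
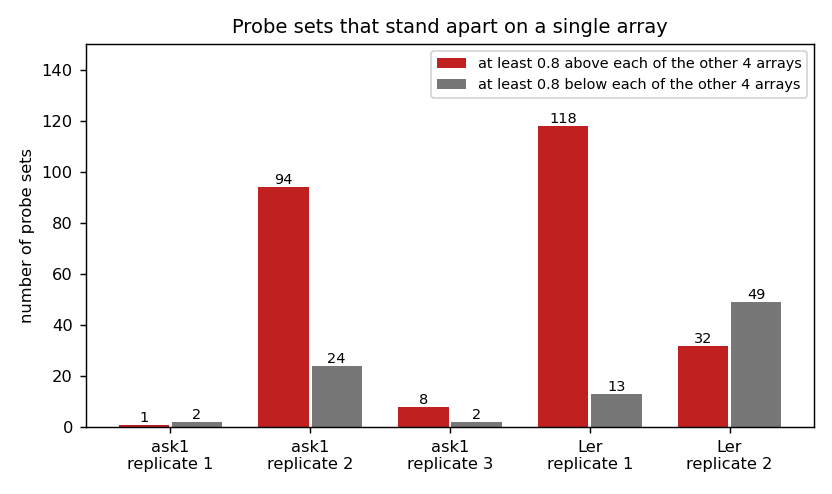
Number of probe sets (vertical axis) that lay at least 0.8 on the log2 scale above (red) or below (grey) each of the other 4 arrays, for each of the 5 arrays (horizontal axis). The highest bar is that of L*er* replicate 1, with 118 probe sets above, followed by *ask1* replicate 2 with 94.

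In the 113 probe sets the gap between L*er* replicate 1 and the highest of the other 4 arrays ranged from 0.81 to 3.04 on the log2 scale, with a median of 1.18, which is 2.27-fold. The gap was at least 1 in 77 probe sets and at least 2 in 16, and 36 lay between 0.8 and 1. Against the mean of the other 4 arrays, L*er* replicate 1 was higher by a median of 1.66 (3.15-fold), where the median over all probe sets was 0.01. Against L*er* replicate 2 alone, the array of the same genotype, the difference ranged from 0.83 to 4.0 with a median of 1.69, so the largest difference between the 2 wild-type replicates in this set was 16-fold.

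The median log2 signal of the 113 probe sets was 5.88, 5.58 and 6.04 in *ask1* replicates 1, 2 and 3, 5.72 in L*er* replicate 2 and 7.47 in L*er* replicate 1. Over all probe sets the same medians were 7.07, 7.13, 7.13, 7.08 and 7.18. On the 4 arrays where they were low, the 113 were therefore dimmer than the array as a whole, and on L*er* replicate 1 their median was slightly above that of the array. In 20 of the 113 (17.7%) all of the other 4 arrays were under a log2 signal of 5, a range in which background flattens ratios, against 21.2% of all probe sets. In 4 of those 20 L*er* replicate 1 was under 5 too. At the other end, 6 probe sets were at 8 or above on each of the other 4 arrays, and 12 reached 10 or above in L*er* replicate 1.

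**Figure D2:**
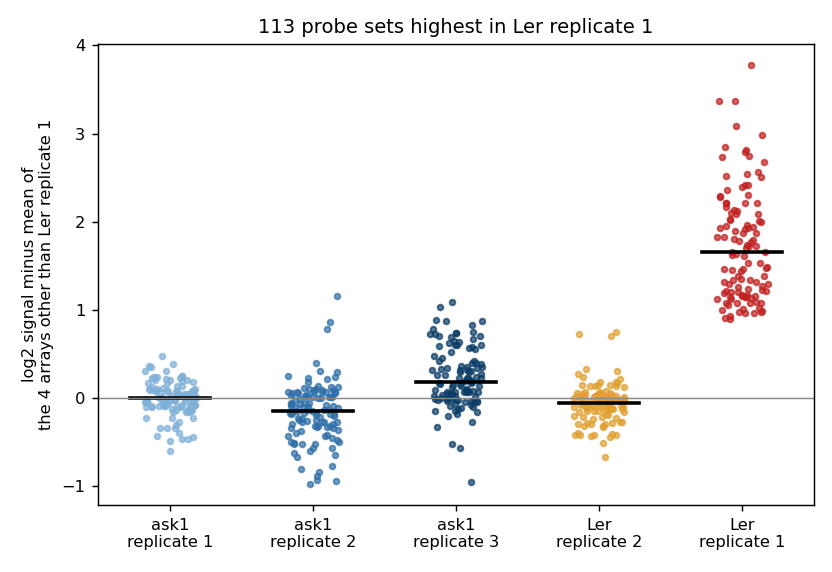
Log2 signal of each of the 113 probe sets minus its mean over the 4 arrays other than L*er* replicate 1 (vertical axis), by array (horizontal axis). Each point is 1 probe set and the black line is the median: the points of L*er* replicate 1 lie around 1.66, and those of L*er* replicate 2 lie among the *ask1* points.

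The criterion set no order among the other 4 arrays. It did leave out any probe set in which 1 of them came within 0.8 of L*er* replicate 1. The shares of all probe sets given here carry no such limit, so nothing is read from the contrast with them. *ask1* replicate 3 was the highest of the 4 in 66 of the 113 probe sets (58.4%, against 26.1% of all probe sets), and *ask1* replicate 2 was the lowest in 63 (55.8%, against 31.8%). *ask1* replicate 3 exceeded *ask1* replicate 2 by a median of 0.34, where over all probe sets the median was 0.02. L*er* replicate 2 lay within the range of the 3 *ask1* arrays in 77 probe sets (51.9% of all probe sets did), below all 3 in 22 (23.7% of all probe sets were) and above all 3 in 14 (24.4% of all probe sets were). The difference of L*er* replicate 2 from the *ask1* mean ranged from -0.90 to 1.0 with a median of -0.07. The range over the 4 arrays had a median of 0.57 and was under 0.8 in 79 of the 113 probe sets.

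Small secreted proteins of the lipid transfer and defensin types included AT3G07450, the named gene with the largest gap. Lipid transfer proteins are cysteine-rich carriers of lipids, and several of them are secreted by the tapetum into the pollen wall. The class had 5 genes, with gaps from 1.81 to 2.95 and a median of 2.02. AT3G07450, of the lipid transfer protein family, had a log2 signal of 8.92, 8.68 and 9.43 in the *ask1* arrays (replicates 1, 2, 3), 9.0 in L*er* replicate 2 and 12.38 in L*er* replicate 1. The other 4 arrays had a mean of 9.01 ± 0.31 (SD, n = 4), and L*er* replicate 1 lay 2.95 above the highest of them, which is 7.71-fold. From here on the values of each gene are given in the same order of arrays.

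AT5G62080 of the lipid transfer family, which stands in the pollen wall and tapetum secretion list, had 9.98, 10.35 and 10.73 in *ask1*, 9.94 in L*er* replicate 2 and 12.54 in L*er* replicate 1. AT3G52130, of the same family and list, had 9.32, 9.47 and 10.07 in *ask1*, 9.03 in L*er* replicate 2 and 12.03 in L*er* replicate 1. AT5G52160, likewise of that family and list, had 6.15, 5.39 and 6.62 in *ask1*, 5.49 in L*er* replicate 2 and 8.64 in L*er* replicate 1. In all 3 genes *ask1* replicate 3 was the highest of the other arrays. L*er* replicate 2 was the lowest of the 5 arrays for AT5G62080 and AT3G52130, and L*er* replicate 1 exceeded it by 2.61, 3.00 and 3.15 in the order named. The fifth gene, *LCR66*, encodes a plant defensin and had 4.77, 4.73 and 5.68 in *ask1*, 5.13 in L*er* replicate 2 and 7.93 in L*er* replicate 1. L*er* replicate 1 lay 2.25 above *ask1* replicate 3, the highest of the others, and none of the *ask1* or L*er* replicate 2 values came near it.

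AT4G20420 belongs to a family of tapetum-specific proteins. It had 6.20, 7.80 and 6.08 in *ask1*, 6.50 in L*er* replicate 2 and 10.02 in L*er* replicate 1, a gap of 2.22. Here *ask1* replicate 2, and not *ask1* replicate 3, was the highest of the other arrays. L*er* replicate 1 was 11.4-fold above L*er* replicate 2.

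**Figure D3:**
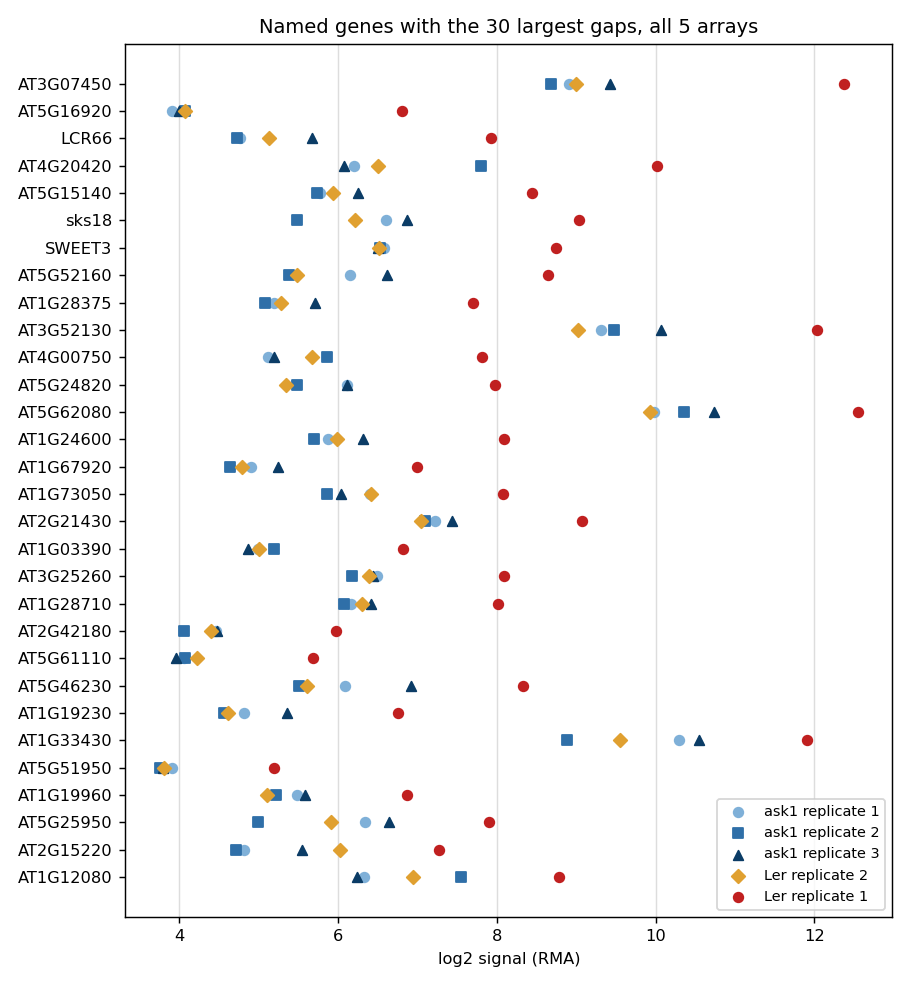
Log2 signal (horizontal axis) of the 30 named genes with the largest gaps (vertical axis, largest at the top) on each of the 5 arrays, 1 point per array. The red points of L*er* replicate 1 lie to the right of all others by the choice of genes, from AT3G07450 with a gap of 2.95 to AT1G12080 with a gap of 1.23, and the yellow points of L*er* replicate 2 lie mostly among the blue points of *ask1*.

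Enzymes of the cell wall and of sugars numbered 7, with gaps from 1.03 to 2.19 and a median of 1.21. AT5G15140, a galactose mutarotase-like protein, had the largest gap, with 5.77, 5.73 and 6.25 in *ask1*, 5.94 in L*er* replicate 2 and 8.44 in L*er* replicate 1. AT1G33430, known as *KNS4*, encodes a galactosyltransferase needed for the structure of the pollen wall, and had 10.30, 8.88 and 10.54 in *ask1*, 9.55 in L*er* replicate 2 and 11.91 in L*er* replicate 1. Its other 4 arrays were spread widely, from the lowest in *ask1* replicate 2 to the highest in *ask1* replicate 3, and L*er* replicate 1 lay 1.37 above the top of that range. *DD46*, of a galactosyltransferase family, followed the same order, with 6.57, 6.15 and 7.33 in *ask1*, 6.33 in L*er* replicate 2 and 8.54 in L*er* replicate 1. AT1G28710, of a nucleotide-sugar transferase family, was more even, at 6.17, 6.08 and 6.42 in *ask1*, 6.31 in L*er* replicate 2 and 8.01 in L*er* replicate 1. The remaining enzymes were AT4G01700 of the chitinase family, the beta-galactosidase gene *BGAL16* and AT3G24230 of the pectate lyase family, with gaps of 1.08, 1.05 and 1.03.

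Transporters numbered 4, and a pair of them belong to the SWEET family, whose proteins let sugars cross membranes. *SWEET3* was nearly flat on the other arrays, at 6.58, 6.53 and 6.51 in *ask1* and 6.52 in L*er* replicate 2, and reached 8.74 in L*er* replicate 1. *SWEET7* had 5.68, 4.94 and 6.80 in *ask1*, 5.43 in L*er* replicate 2 and 7.88 in L*er* replicate 1. The 2 sugar transporters therefore differed in their spread over the other 4 arrays, which was 0.03 for *SWEET3* and 0.79 for *SWEET7* (SD, n = 4). AT3G25260, of the nitrate and peptide transporter family, had 6.49, 6.17 and 6.44 in *ask1*, 6.39 in L*er* replicate 2 and 8.10 in L*er* replicate 1. AT4G22790, of the MATE efflux family, had the smallest gap of the 4, at 0.86.

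Oxidoreductases formed the largest class, with 8 genes and gaps from 0.98 to 2.17. The gene *sks18*, related to the multicopper oxidase-like SKU5, had 6.60, 5.49 and 6.87 in *ask1*, 6.22 in L*er* replicate 2 and 9.04 in L*er* replicate 1. AT1G19230 encodes the NADPH oxidase RBOHE, which makes reactive oxygen in the tapetum and takes part in its timed breakdown. It had 4.81, 4.56 and 5.36 in *ask1*, 4.62 in L*er* replicate 2 and 6.76 in L*er* replicate 1. In both genes *ask1* replicate 3 was highest and *ask1* replicate 2 lowest among the other arrays.

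AT1G73050 and AT5G51950 share a family of glucose-methanol-choline oxidoreductases. AT1G73050 had 6.41, 5.87 and 6.04 in *ask1*, 6.42 in L*er* replicate 2 and 8.08 in L*er* replicate 1. AT5G51950 was dim, at 3.91, 3.76 and 3.79 in *ask1*, 3.81 in L*er* replicate 2 and 5.20 in L*er* replicate 1, so only L*er* replicate 1 was past a log2 signal of 5. AT1G30760 of the berberine bridge enzyme family and AT2G24800 of the peroxidase family had gaps of 1.18 and 1.1. The 2 further genes of the class, AT1G72230 of the cupredoxin family and AT5G08250 of the cytochrome P450 family, had gaps of 1.01 and 0.98.

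The 2 peptidase genes had similar gaps. AT5G24820, of the aspartyl protease family, had 6.12, 5.49 and 6.11 in *ask1*, 5.35 in L*er* replicate 2 and 7.98 in L*er* replicate 1, a gap of 1.86. AT2G21430, a papain-type cysteine protease gene, had 7.22, 7.1 and 7.43 in *ask1*, 7.04 in L*er* replicate 2 and 9.07 in L*er* replicate 1, a gap of 1.64. L*er* replicate 2 was the lowest of the 5 arrays for both.

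Of the 4 genes for acyl and methyl transferases, AT4G00750 had the largest gap, 1.96. This gene of the S-adenosylmethionine-dependent methyltransferase family had 5.12, 5.86 and 5.20 in *ask1*, 5.67 in L*er* replicate 2 and 7.82 in L*er* replicate 1. AT1G03390, of the HXXXD-type acyltransferase family, had 4.99, 5.19 and 4.87 in *ask1*, 5.01 in L*er* replicate 2 and 6.83 in L*er* replicate 1. *ask1* replicate 2 was the highest of the other arrays for both genes. AT2G45750 and AT2G39980, of the same 2 families, had gaps of 1.14 and 0.90.

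Kinase genes numbered 5, all with small gaps, from 0.89 to 1.11. AT5G60090 and AT5G60080 are neighbours with 0 genes between them in the TAIR10.1 annotation. AT5G60090 had 4.54, 4.97 and 4.87 in *ask1*, 5.15 in L*er* replicate 2 and 6.27 in L*er* replicate 1. AT5G60080 had 4.94, 4.75 and 4.74 in *ask1*, 4.98 in L*er* replicate 2 and 6.01 in L*er* replicate 1. In both kinase genes L*er* replicate 2 was the highest of the other 4 arrays by a narrow margin, as in 14 of the 113 probe sets. *WNK9*, AT1G66460 and AT1G61590 had gaps of 1.03, 0.97 and 0.89. A second pair on 1 chromosome, AT2G42180 and AT2G42140, had 4 genes between them, and AT1G06250 lay 9 genes from AT1G06170, 1 of the genes left out.

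Genes grouped here under transcription and ubiquitin transfer also numbered 4, all near the threshold, with gaps from 0.81 to 1.05. They were AT2G29600 of a kelch repeat family, AT1G04880, which encodes a DNA-binding protein with ARID and HMG-box domains, and the RING-type zinc finger genes AT5G55970 and AT1G74870. AT1G04880 was even over the other arrays, at 5.97, 5.75 and 5.95 in *ask1* and 5.87 in L*er* replicate 2, and stood at 7.0 in L*er* replicate 1. The highest gap of these 4 genes, 1.05, belonged to AT2G29600. The left-out tapetum regulators *AMS* and AT1G06170 had gaps of 1.16 and 1.09. Classes were assigned by hand after the values were seen, so gaps are not compared between classes. Levels are not compared between genes here, since each probe set has its own response.

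Of the 66 named genes, 26 were given no class here, and several of them had gaps as large as those above. AT5G16920 had 3.91, 4.08 and 4.0 in *ask1*, 4.08 in L*er* replicate 2 and 6.80 in L*er* replicate 1, the second largest gap among the named genes at 2.73. On all of the other 4 arrays it was under 5. AT1G28375, AT1G24600 and AT1G67920 had gaps of 1.99, 1.78 and 1.75, and AT2G42180, AT5G61110, AT5G46230, AT1G19960 and AT5G25950 ranged from 1.25 to 1.49. AT2G15220, of a family of basic secretory proteins, had 4.82, 4.72 and 5.55 in *ask1*, 6.03 in L*er* replicate 2 and 7.28 in L*er* replicate 1. It was among the 14 probe sets in which both L*er* arrays were above all 3 *ask1* arrays. The place of L*er* replicate 1 there follows from the criterion. Over all probe sets, L*er* replicate 2 was above all 3 *ask1* arrays in 24.4%. AT1G12080 had 6.33, 7.55 and 6.24 in *ask1*, 6.95 in L*er* replicate 2 and 8.79 in L*er* replicate 1, with *ask1* replicate 2 the highest of the others. Among the 45 probe sets without a gene name was the largest gap of all, 3.04, in a probe set with 6.42, 6.08 and 7.25 in *ask1*, 6.29 in L*er* replicate 2 and 10.29 in L*er* replicate 1.

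At the threshold of 0.8, the 3 named genes just inside were AT1G06250, AT1G07860 and AT1G74870, with gaps of 0.83, 0.83 and 0.81. Just outside lay AT4G16270, AT3G62040 and *SWEET4*, with gaps of 0.78, 0.78 and 0.76. *SWEET4*, another sugar transporter gene, had 6.13, 5.91 and 6.08 in *ask1*, 6.41 in L*er* replicate 2 and 7.17 in L*er* replicate 1. AT4G16270, of the peroxidase family, had 10.59, 8.88 and 10.75 in *ask1*, 10.32 in L*er* replicate 2 and 11.53 in L*er* replicate 1. The gaps ran on without a break across the threshold.

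Lists of genes that mark the cell types and stages of a bud were then read on the same arrays, in order to see which of them stood high in L*er* replicate 1. A listed gene counted as measured only where a probe set is paired with that gene alone. The others may lie among the probe sets paired with no gene or with several, so they were not shown to be missing from the array. The lists name 22 regulators of tapetum and anther cell fate, and 7 were measured under a gene name. All 7 measured regulators were higher in L*er* replicate 1 than in L*er* replicate 2 (51.6% of all probe sets were). Of the 7, 6 were highest in L*er* replicate 1 of all arrays (24.3% of all probe sets were). At least 0.8 above L*er* replicate 2 were 3 of them (1.52% of all probe sets were). For 2 of the 7, *AMS* and AT1G06170, the criterion fixed these outcomes, so nothing is read from the contrast with the shares. The 5 others were all higher in L*er* replicate 1 than in L*er* replicate 2. The median difference from L*er* replicate 2 was 0.77, and it was 0.64 over the 5 genes that did not meet the criterion of the set. *SPL*, which starts the formation of the sporogenous cells, had 7.73, 7.47 and 8.13 in *ask1*, 7.96 in L*er* replicate 2 and 8.60 in L*er* replicate 1. *ROXY2*, a glutaredoxin gene of early anther development, had 6.88, 6.74 and 7.53 in *ask1*, 6.93 in L*er* replicate 2 and 7.80 in L*er* replicate 1. Both were highest in L*er* replicate 1 and next in *ask1* replicate 3, with smaller gaps, 0.47 and 0.27.

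*EMS1*, which encodes the receptor kinase that specifies tapetal cells, had 9.74, 9.39 and 9.81 in *ask1*, 9.83 in L*er* replicate 2 and 9.99 in L*er* replicate 1. *ROXY1* was at 8.24, 8.47 and 7.98 in *ask1*, 8.09 in L*er* replicate 2 and 8.14 in L*er* replicate 1. These genes differed by 0.16 and 0.05 between the L*er* arrays, so the regulators were not shifted alike. *bHLH091*, whose product works with DYT1 in the tapetum, differed by 0.77. The mean log2 signal of the 7 regulators was 6.89, 6.60 and 7.21 in *ask1*, 6.91 in L*er* replicate 2 and 7.74 in L*er* replicate 1.

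In the list of pollen wall and tapetum secretion, 9 of 32 genes were measured. All 9 were higher in L*er* replicate 1 than in L*er* replicate 2 (51.6% of all probe sets were). Of the 9, 7 met the criterion of the set and 4 of those are in the set described here. For these 7 the criterion fixed the direction, so nothing is read from the count of 9. The median difference from L*er* replicate 2 was 2.77, and that from the *ask1* mean was 2.41, values set largely by the 7 genes that the criterion selects. Over the 2 genes that did not meet it the median difference from L*er* replicate 2 was 0.21. *SWEET8*, a sugar transporter gene of the tapetum needed for exine formation, had 9.31, 9.06 and 9.41 in *ask1*, 9.51 in L*er* replicate 2 and 9.91 in L*er* replicate 1. *SHT*, which encodes a spermidine acyltransferase of the tapetum, was under 5 on every array and differed by 0.01. The list means were 7.75, 7.73 and 8.19 in *ask1*, 7.53 in L*er* replicate 2 and 9.89 in L*er* replicate 1.

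The pollen coat genes, which mark the later tapetum, mostly lay lower in L*er* replicate 1 than in L*er* replicate 2, but 0 by at least 0.8. Of 5 measured genes of 19, 1 was higher in L*er* replicate 1 than in L*er* replicate 2 (51.6% of all probe sets were). The criterion was met by 0 and the median difference was -0.22. No shift of the list is read from 5 genes. *EXL3*, an extracellular lipase gene of the pollen coat, had 9.52, 9.35 and 9.34 in *ask1*, 8.79 in L*er* replicate 2 and 8.43 in L*er* replicate 1, which was the lowest of the 5 arrays. *EXL1* had 8.24, 7.47 and 8.75 in *ask1*, 7.61 in L*er* replicate 2 and 7.48 in L*er* replicate 1, and *EXL2* differed by -0.39 between the L*er* arrays. *EXL5* and *ATA27* were under 5 on every array.

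Meiosis genes differed by small amounts. Of 34 listed genes 8 were measured under a gene name. All 8 were higher in L*er* replicate 1 than in L*er* replicate 2 (51.6% of all probe sets were). Of the 8, 7 were highest in L*er* replicate 1 of all arrays (24.3% of all probe sets were), but 0 met the criterion. The median difference between the L*er* arrays was 0.31. It was 0.22 after median centring of each array and 0.20 with dim probe sets left out. *SDS*, a cyclin gene of meiosis, had 5.20, 4.96 and 5.30 in *ask1*, 5.23 in L*er* replicate 2 and 5.79 in L*er* replicate 1. The crossover genes *RCK* and *PTD* differed by 0.59 and 0.46 between the L*er* arrays, and *ZYP1b*, a gene of the synaptonemal complex, by 0.43. *MND1* and *SPO11-1* differed by 0.01 and 0.08.

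Genes of mature pollen and the pollen tube did not stand high in L*er* replicate 1 as a list. Of 52 listed genes 11 were measured, 6 of them were under 5 on every array while the brightest, *AGL65*, was at 6.51 to 7.07, 4 were higher in L*er* replicate 1 than in L*er* replicate 2 and 0 met the criterion. The median difference was -0.04, from -0.19 for *AT59* to 0.38 for *PLIM2b*. In the list of floral meristem and organ identity, 2 of 6 measured genes (40 listed) were higher in L*er* replicate 1, with a median difference of -0.08, and *PUCHI* had the lowest, -0.56. The 4 measured genes of late buds (20 listed) had a median of -0.08. *TPS11*, a terpene synthase gene of the open flower, had 9.28, 8.85 and 9.42 in *ask1*, 8.55 in L*er* replicate 2 and 8.21 in L*er* replicate 1. The 4 measured genes of carpel and ovule (15 listed) had a median of -0.47, where *INO*, *SPT* and *BAN* were lower in L*er* replicate 1 by -0.61, -0.58 and -0.35 and *VDD* was higher by 0.67.

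Of the lists for photosynthesis (20 listed) and cell division (16 listed), 2 and 1 genes were measured, and *LHCB4.1*, *PSAE1* and *AUR1* differed by 0.25, -0.04 and 0.05 between the L*er* arrays. Of the list for seed storage 0 of 11 genes were measured. Among the genes that did not meet the criterion, the medians were 0.64 for the tapetum regulators (5 genes), 0.21 for pollen wall and tapetum secretion (2 genes) and 0.31 for meiosis (8 genes). The lists for pollen coat, floral meristem, late buds and carpel had medians below 0, and that of mature pollen was below 0 over all 11 genes and 0.12 when dim probe sets were left out. The part that the mix of bud stages or of anther cells had in the signals of the 113 probe sets was not tested.

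**Figure D4:**
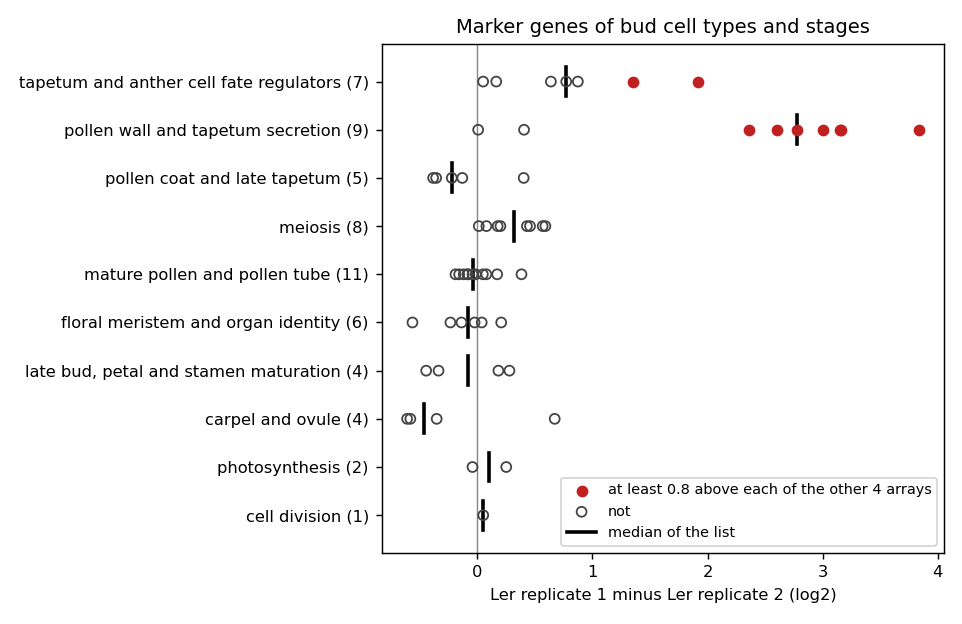
Difference between L*er* replicate 1 and L*er* replicate 2 on the log2 scale (horizontal axis) for each measured gene of 10 lists (vertical axis, number of measured genes in parentheses), with 1 circle per gene and a black line at the list's median. Red circles are genes at least 0.8 above each of the other 4 arrays: they occur in the 2 upper lists only, where the medians are 0.77 and 2.77.

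L*er* replicate 1 was also at least 0.8 below each of the other arrays in 13 probe sets (0.0572%), 6 of them with a gene name. *GI*, a gene of the circadian clock, had 9.21, 8.49 and 8.99 in *ask1*, 8.94 in L*er* replicate 2 and 7.04 in L*er* replicate 1. *STZ*, which encodes a zinc finger protein of stress responses, had 7.53, 8.31 and 7.47 in *ask1*, 7.09 in L*er* replicate 2 and 5.98 in L*er* replicate 1. The jasmonate-related genes *ORA47* and *OPCL1* had 5.93 and 7.0 in L*er* replicate 1 against 7.08 and 8.05 in L*er* replicate 2.

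The criterion bears on the comparison of genotypes made here because L*er* replicate 1 is 1 of the only 2 wild-type arrays that were analysed. With all arrays the *ask1* mean minus the L*er* mean ranged from -1.79 to -0.33 over the 113 probe sets, with a median of -0.74, and it was below 0 in all of them. L*er* replicate 1, which the criterion set high, enters that L*er* mean with the same weight as L*er* replicate 2, so nothing is read from this sign. Without L*er* replicate 1 it ranged from -1.0 to 0.90 with a median of 0.07. In 75 of the 113 the *ask1* mean was then above L*er* replicate 2 (48.3% of all probe sets), and in 38 it was below. The criterion also kept L*er* replicate 2 at least 0.8 below L*er* replicate 1, so nothing is read from these counts either.

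**Figure D5:**
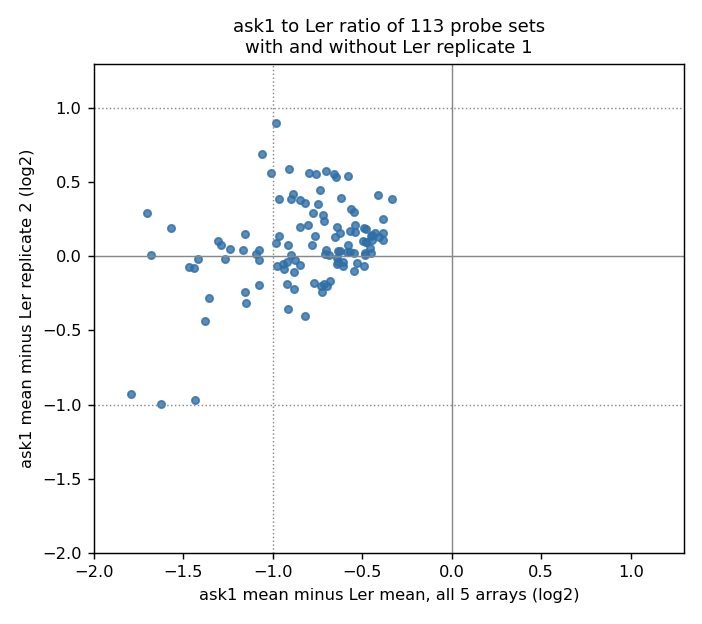
*ask1* mean minus L*er* mean over all 5 arrays (horizontal axis) and *ask1* mean minus L*er* replicate 2 alone (vertical axis), both on the log2 scale, for the 113 probe sets, with 1 point each and dotted lines at a 2-fold difference. The points run from -1.79 to -0.33 on the horizontal axis and from -1.0 to 0.90 on the vertical axis.

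At a threshold of 2-fold, the *ask1* mean was below the L*er* mean in 119 probe sets of the whole array (0.523%), and 25 of these were in the set. They made up 21.0% of that selection and 22.1% of the set, and AT3G07450, *LCR66*, AT4G20420, *SWEET3*, *sks18* and AT5G15140 were among them. Without L*er* replicate 1, 129 probe sets (0.567%) had an *ask1* mean at least 2-fold below L*er* replicate 2, and 0 of them were in the set. Without L*er* replicate 2, 229 probe sets (1.01%) had an *ask1* mean at least 2-fold below L*er* replicate 1, and 103 of these were in the set, 45.0% of that selection. That overlap is largely set by the criterion, which already placed L*er* replicate 1 above each *ask1* array. The counts of 119 and 129 are unlike measures, since the first used a mean of 2 L*er* arrays and the second 1 array. Their sizes do not show whether the same probe sets were selected. At a share of 0.567%, 0 of 113 probe sets in the second selection says little about the set. The criterion also kept L*er* replicate 2 at least 0.8 below L*er* replicate 1. AT2G15220 (-0.998) and AT2G42140 (-0.968) fell just short of 2-fold.

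When genotypes were fitted with limma over all 22746 probe sets, 1 probe set was higher (0.0044%) and 2 were lower (0.00879%) in *ask1* at a Benjamini-Hochberg adjusted p under 0.05, and 0 of the 113 passed. The smallest limma adjusted p in the set was 0.374. At an unadjusted p under 0.05, 679 probe sets were lower (2.99%) and 898 higher (3.95%) in *ask1*, and 7 of the former and 0 of the latter were in the set. Since the criterion used the same arrays, nothing is read from these counts. Of the probe sets that were both 2-fold lower and under an unadjusted limma p of 0.05, 29 in all, 4 were in the set, with AT2G15220 and AT2G42140 the named ones. AT2G42140 had 5.38, 5.91 and 5.51 in *ask1*, 6.57 in L*er* replicate 2 and 7.50 in L*er* replicate 1, so both L*er* arrays lay above all 3 *ask1* arrays, as for AT2G15220. Without L*er* replicate 1 the ratios of these 2 genes were -0.97 and -1.0. When the fit was repeated without L*er* replicate 1, with the lone L*er* array assumed to vary like *ask1*, 3 of the 113 were lower (2.21% of all probe sets) and 2 higher (3.48%) in *ask1* at an unadjusted p under 0.05, and 0 passed the adjusted test. Without L*er* replicate 2, 5 probe sets were lower in *ask1* at a limma adjusted p under 0.05 (0.022%), and 4 of them were in the set. Without *ask1* replicate 2, 211 were lower (0.928%) and 0 of them were in the set. The criterion fixed the place of L*er* replicate 1 in each fit that held it, so nothing is read from these overlaps.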

How the data were processed

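RNA of floral buds was hybridised to Affymetrix ATH1 arrays, of which 3 of *ask1* and 2 of L*er* were analysed here. The deposited values are log2 signals that the authors made with RMA, which corrects the background, brings all arrays to a common distribution and summarises the probes of each set. Its version is not given in the sources used here. Any array-specific difference in which RNAs were present stays in such values, and a shift common to all genes is removed.

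The criterion was applied to all 22746 probe sets, of which the platform's table pairs 13513 with 1 gene, 503 with several and 8730 with none, and 13436 matched a locus of the RefSeq annotation TAIR10.1, which was used for names and neighbours only. No sequences or coordinates are given. The *ask1* and L*er* arrays were set against each other in R 4.3.3 by limma 3.58.1 (a linear fit with empirical Bayes moderation, 2-sided, Benjamini-Hochberg adjustment over all probe sets), and other values were computed with Python 3.11.15, pandas 2.3.3 and numpy 2.4.6. The fit was tested on simulated data. Fold values are 2 to the power of log2 differences.

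The genes and the 11 marker lists were chosen with earlier results of these data known. The rule for named genes took the 30 largest gaps, members of the lists, up to 6 genes of each functional class, 3 genes on either side of the threshold and, per list, up to 4 genes with the largest and 2 with the smallest difference between the L*er* arrays. The annotation held few functional words, so classes were assigned by hand from background knowledge for 40 genes, after their values were seen. AT2G42140, *GI*, *STZ*, *ORA47*, *OPCL1* and the unnamed probe set with the largest gap were also singled out after their values were seen. In the set, 3 probe sets are of the kind that can match several transcripts, AT2G15220 and AT1G35280 among them.

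Alternatives were other thresholds, median centring, quantile normalization, a filter on dim probe sets, 1 probe set per gene, limma-trend, the methods' t-test, a block for the replicate number and fits without 1 array at a time.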

Additional observations from a re-analysis of the deposited data

How the results depend on the processing

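The set of 113 probe sets became 176 at a threshold of 0.6 and 77 at a threshold of 1, and it was 100 after median centring of each array, 110 after quantile normalization (106 shared with the 113) and 95 among probe sets with a mean log2 signal of at least 5. With 1 array fewer in the criterion it held between 116 and 150 probe sets. The median of L*er* replicate 1 minus the other arrays, 1.66, was 1.21 at a threshold of 0.6 and 1.92 at 1, and 1.41 to 1.62 with an array left out. The median of L*er* replicate 2 minus the *ask1* mean lay between -0.09 and 0.01 with an *ask1* array left out. The criterion cannot be applied without L*er* replicate 1. Of the 66 named genes, 60 kept a gap of at least 0.8 after centring and 62 after quantile normalization. With dim probe sets left out, the median of the pollen coat list against the *ask1* mean was -0.67 in place of -0.11, and the late bud median between the L*er* arrays was -0.34 in place of -0.08, on fewer genes, and the mature pollen medians turned from -0.04 to 0.12 between the L*er* arrays and from -0.01 to 0.07 against the *ask1* mean (0.02 after quantile normalization). The single cell division gene turned from 0.05 to -0.05 between the L*er* arrays after centring.

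For the whole array at a limma adjusted p under 0.05, the replicate block gave 1 lower and 1 higher probe set, quantile normalization 1 and 0, and the methods' t-test after Benjamini-Hochberg 0 and 0 (649 and 679 at an unadjusted p under 0.05). Leaving out 1 array gave 0 to 211 lower and 0 to 162 higher, where the highest counts came without *ask1* replicate 2. Among the 113 probe sets, 0 passed an adjusted p under 0.05 in any setting named here that kept both L*er* arrays. The criterion held the 2 L*er* arrays at least 0.8 apart in each of the 113, which raises the spread in such fits. Nothing is therefore read from this 0. The fit without L*er* replicate 2 is not counted, since the criterion placed L*er* replicate 1 above each *ask1* array. The 2 L*er* arrays mirror each other around their mean, so the replicate numbers were not shown to pair the arrays: arrays of the same number had deviations from their group mean that correlated at -0.26 (replicate 1) and -0.01 (replicate 2). The replicate block left 331 lower and 505 higher of 22746 probe sets at an unadjusted limma p under 0.05. Of the lower ones, 48 were in the set in place of 7. No L*er* array read here shares the number of *ask1* replicate 3, so that array does not inform the genotype difference in this fit. Since the criterion used the same arrays, nothing is read from the 48.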
